A study of Homo sapiens with 2 samples.

Results

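The circadian clock genes are 10 genes of the molecular loop that keeps daily time in cells: PER1, PER2, CRY1, CRY2, CLOCK, ARNTL, NR1D1, NR1D2, BHLHE40 and DBP. They were taken by name from a table of 47352 gene names, and all 10 were found. N6-methyladenosine (m6A), a methylated adenosine within RNA, was mapped in GM12878, an established human lymphoblastoid line made by infecting B cells with Epstein-Barr virus. Its RNA was broken into fragments, and fragments bound by an m6A antibody (the immunoprecipitated library, IP) were sequenced beside unselected fragments (the input). There was 1 library of each kind, both from untreated cells in ordinary culture, and the labels name no treatment that resets or synchronises the clock. Without replicates no test between IP and input is possible, and the intervals on coverage and on ratios cover counting error of reads only.

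In the clock loop the proteins CLOCK and BMAL1 (the product of ARNTL) bind E-box sites in DNA together and switch on the PER and CRY genes, whose products then enter the nucleus and block CLOCK and BMAL1. NR1D1 and NR1D2 encode the nuclear receptors REV-ERB alpha and beta, which repress ARNTL in a further loop. BHLHE40 encodes DEC1, a repressor that also acts through E-boxes, and DBP is a transcription factor that carries the rhythm to output genes. m6A is laid down while RNA is made, is often found in long internal exons and near the start of the last exon of an mRNA, and is known to influence how long an mRNA lasts. Loss of methylation has been reported to lengthen the clock period in cultured cells.

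The table gives scaled coverage in windows of about 100 nt placed about every 50 nt along exons. In the input a scaled coverage of 1 equals 16.2 reads in a window, and in the IP 10.3 reads. Summed over the longest listing of each gene name, the input coverage corresponded to 51.7 M reads, and that of the IP to 58.5 M. These sums are not the sequencing depth of the libraries. The source field of the labels gives mouse embryonic stem cells, in conflict with their human organism and GM12878 cell line. All 10 B cell markers examined had a mean input coverage of 3.0 or more, with a summed level of 1012, of which CD74 alone gave 775. None (0) of 8 pluripotency markers reached 1, and their sum was 0.278. Of the markers of other cells, 2 of 8 for T cells (sum 9.93, of which LCK gave 8.28) reached 1. For fibroblasts 1 of 6 (sum 3.04) and for myeloid cells 1 of 5 (sum 1.5) did so.

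The clock genes fell into 1 abundant transcript and 9 that lay below the median input of measured genes. BHLHE40 had a mean input coverage of 29.6 and a mean IP coverage of 221. The next highest input was that of PER1 at 2.77 (IP 3.83), so BHLHE40 stood 10.7-fold above it. DBP followed at 2.12 (IP 3.11). Below it came CRY2 at 1.42 (IP 1.13) and PER2 at 1.39 (IP 2.57), which did not differ beyond counting error (Poisson intervals 1.34 to 1.51 and 1.32 to 1.46), and NR1D1 at 1.16 (IP 1.70). The other 4 genes lay under an input of 1, the minimum at which a gene is called measured. These were ARNTL at 0.919 (IP 1.03), CRY1 at 0.794 (IP 0.895), CLOCK at 0.693 (IP 0.659) and NR1D2 at 0.301 (IP 1.03). Neighbours in this last part of the order, ARNTL and CRY1 or CRY1 and CLOCK, had overlapping counting intervals (0.839 to 1.0, 0.723 to 0.870 and 0.656 to 0.732). In bulk RNA fewer expressing cells and less RNA per cell cannot be told apart. The median input of the 10 genes was 1.27, against 3.75 over all 10756 measured genes. Both activators of the loop, CLOCK and ARNTL, were thus among the genes below the minimum.

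The window score in the table is a log2 value. It is the IP relative to its median over the gene, divided by the input relative to its own gene median, with 1 added to each number. A score of 2, which is 4-fold, marks an enriched window, and a run of at least 2 such windows is called a region. The gene-level score is the highest mean of 2 neighbouring windows. By these rules 4 of the 10 clock genes held a region: BHLHE40 and NR1D2 with 2 each, and PER1 and PER2 with 1 each. Among the 6 measured members 3 held a region (50%, exact binomial interval 11.8 to 88.2%), against 44.2% of all measured genes. With so few genes this share cannot be set apart from the background. Its interval treats genes as independent draws, although the members were chosen by name. The median gene-level score was 2.0 over the 6 measured members and 1.81 over all measured genes.

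**Figure D1:**
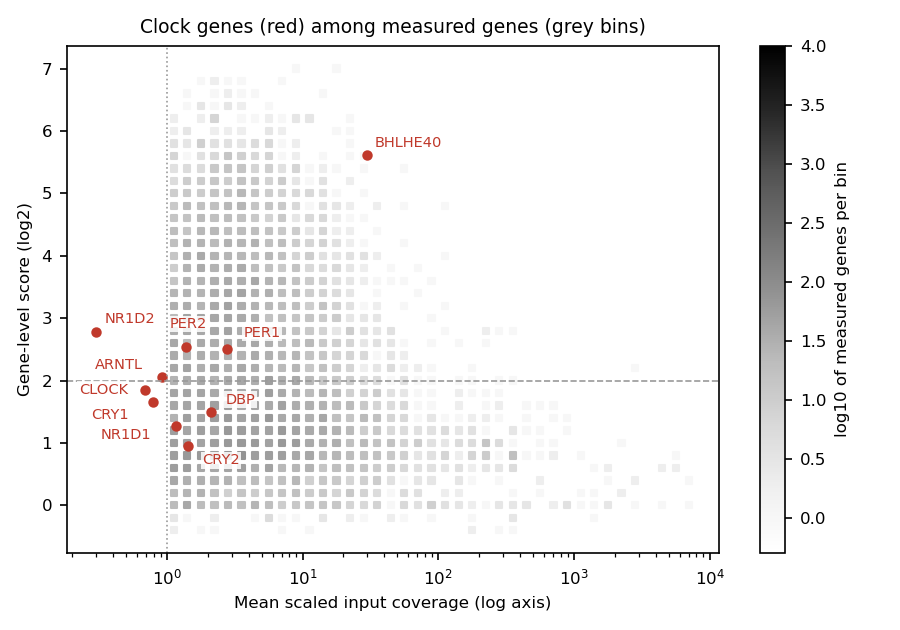
Mean scaled input coverage (log axis) against gene-level score (log2) for the 10 clock genes (red points) and the number of measured genes in each bin (grey squares). The dotted line marks an input of 1 and the dashed line a score of 2, and BHLHE40 at 29.6 and 5.62 lies far from the other members, none of which exceeds an input of 2.77 or a score of 2.78.

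The numbering of exons and windows in the table follows the chromosome, not the transcript. Among 7232 genes on the plus strand the last-numbered exon was the longer terminal exon in 89.2%, and among 6896 genes on the minus strand the first-numbered exon was the longer in 89.0%. Within long terminal exons, 82.4% of enriched windows of plus-strand genes lay in the low-numbered part, and 17.1% of those of minus-strand genes. Exons and windows are therefore given here from the 5′ end, with strands from RefSeq. The exact position of a start or stop codon is not in the table.

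**Figure D2:**
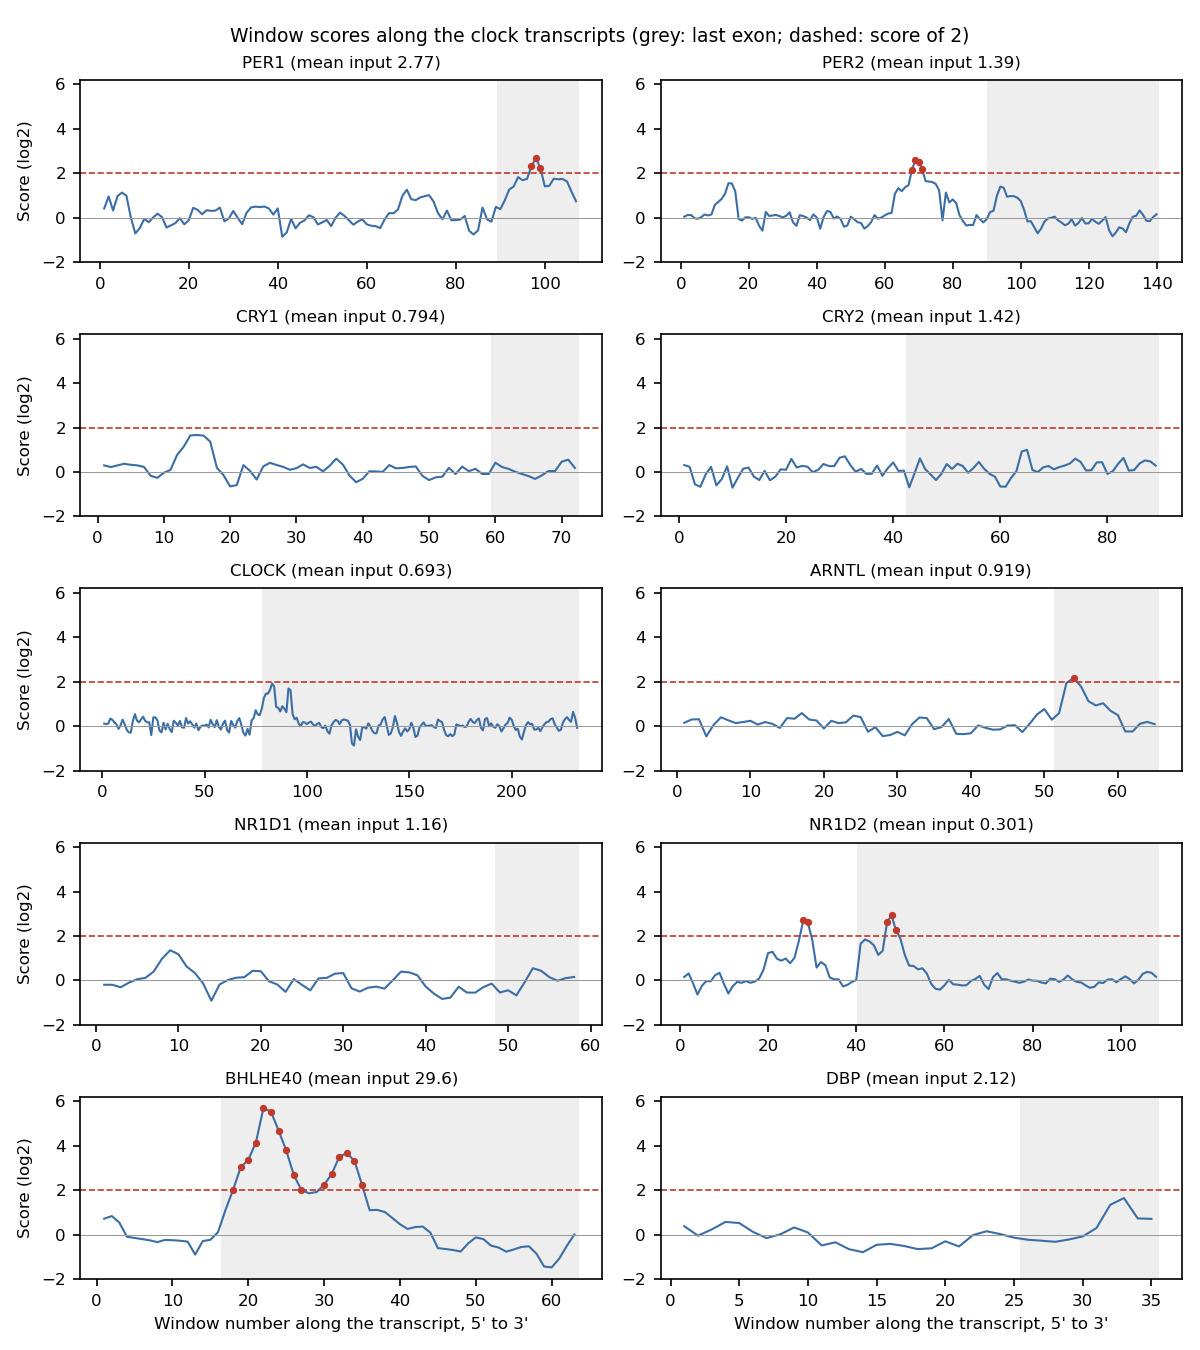
Window score (log2) against window number from the 5′ end for each clock transcript, with the last exon shaded grey, a dashed line at 2 and enriched windows in red. BHLHE40 rises to 5.70 in its last exon, PER1, PER2 and NR1D2 pass 2 briefly, ARNTL passes it in 1 window, and the other 5 genes stay below it.

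BHLHE40 carried by far the strongest m6A signal of the clock genes. Its gene-level score was 5.62, and 98.9% of measured genes scored lower (122 scored higher). The transcript has 5 exons and 63 windows, and the last exon takes up 47 of them. At the highest window, which starts about 250 nt into that exon, input coverage was 24.0 and IP coverage 1719. This is a ratio of 71.6 (exact binomial 95% interval 64.8 to 79.4, from 389 input and 17735 IP reads). In the windows next to it IP coverage was 570 and 2097 over an input of 23.5 and 33.3. From window 3 to window 10 of the exon the input stayed between 23.5 and 42.9, while the IP ranged from 288 to 2097.

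The last exon of BHLHE40 held 2 separate summits. The first region ran over 10 windows, about 50 to 600 nt from the 5′ edge of the exon, and 7.66% of measured genes had a region at least as long. The second ran over 6 windows, about 650 to 1000 nt from the edge, and reached a score of 3.67 where IP coverage was 1200 and input 70.2. The windows between them scored 1.86 and 1.92, and at 1.86 input had risen to 79.7 while IP stood at 388. Both scores lie just under 2. The split, and with it the length of each region, therefore depends on the threshold and on the centring. At least 2 regions were found in 15.9% of measured genes. Together the regions held 54.9% and 29.9% of all IP coverage of the transcript, but 18.0% and 19.1% of its input.

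Farther toward the 3′ end of the exon the IP fell to the level of the input. At about 1400 nt from the edge the IP was 21.3 and the input 24.6, with a score of -0.61. The lowest score, -1.47, came where input was 2.82 and IP 0.82. Over the whole gene the IP exceeded the input by 2.90 on the log2 scale (2.88 to 2.93), the largest value among the members. Taken from means with 1 added it was 2.86, and from the deposited gene medians, which few high windows can move, 0.40. The score divides out part of such a gene-wide shift, and without that centring the gene-level score of BHLHE40 was 6.02.

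**Figure D3:**
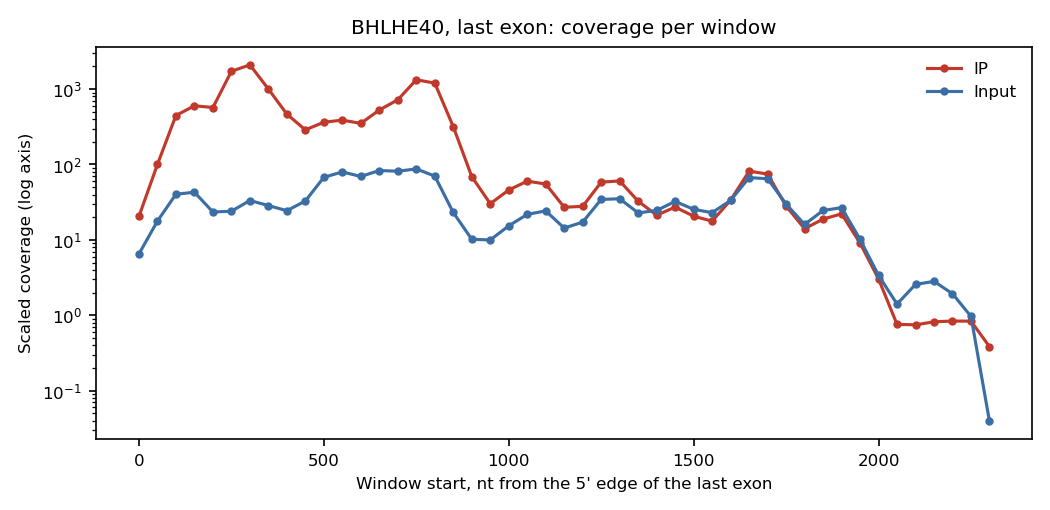
Scaled coverage (log axis) of IP (red) and input (blue) in each window of the last exon of BHLHE40, by distance of the window start from the exon's 5′ edge in nt. IP reaches 2097 near 300 nt and 1329 near 750 nt, where input is 33.3 and 87.3, and from about 1400 nt to 2000 nt both lines lie close together before coverage drops at the end of the exon.

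PER1 and PER2, the paralogous Period repressors, had nearly the same gene-level score, 2.5 and 2.54, but at different places in the transcript. Both listings have 23 exons. In PER1 the region lay in exon 23, the last, over 3 windows about 350 to 550 nt from its 5′ edge. IP coverage there was 21.0, 22.4 and 15.8 over an input of 4.38, 3.46 and 3.36. At the highest window the ratio was 6.46 (4.82 to 8.84, from 56 input and 231 IP reads). The rest of that exon was raised less, and the median score over all its 18 windows, with the region included, was 1.66.

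In PER2 the region lay in exon 19, a long internal exon of 16 windows. It covered 4 windows about 250 to 500 nt from the 5′ edge, where IP coverage was 19.7, 31.5, 35.6 and 26.2 over an input of 4.04, 4.88, 6.07 and 5.51. The ratio at the highest window was 6.46 (5.04 to 8.38, from 79 input and 325 IP reads). This region held 31.5% of the IP coverage of PER2 and 10.6% of its input. Exon 4 of PER2, an internal exon of 4 windows, held no enriched window but scored between 1.08 and 1.55. Its log2 ratio of IP to input was 1.92 (1.33 to 2.54, from 34 input and 82 IP reads). The last exon of PER2, with 50 windows, had no enriched window and reached 1.40 at about 150 nt, where IP was 7.70 and input 2.59.

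Exon 19 of PER1 is long as well, with 13 windows, and had more input reads than that of PER2, yet no window in it passed 2. Its IP coverage stayed between 0.974 and 15.4 over an input of 1.09 to 10.5, and its highest score was 1.26. Over the exon the log2 ratio of IP to input was 0.55 in PER1 (0.40 to 0.70, 721 input and 672 IP reads) and 1.97 in PER2 (1.81 to 2.14, 445 and 1112 reads). The intervals do not overlap, but they cover counting error only. They do not allow for the choice of this exon, which holds the region of PER2. No replicate checks the difference, and the exons were matched by number only. Of 1051 internal exons of 11 to 20 windows in measured genes, 56.4% held a region. In the last exon the log2 ratio was higher in PER1, at 1.77 (1.59 to 1.96) over its 18 windows. Over the 18 windows of the last exon of PER2 nearest its 5′ edge it was 0.85 (0.53 to 1.17), a length matched after the values were seen. The other 32 windows of that exon stood at -0.70 (-1.02 to -0.39), which brings the whole exon to 0.019 (-0.20 to 0.23).

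NR1D1 and NR1D2, the REV-ERB paralogs, differed in both level and score. NR1D2 had the second highest gene-level score of the members, 2.78, from the lowest input. It has 8 exons, with 1 region in exon 5 and another in exon 8, the last. In exon 5 IP coverage was 7.71 and 8.91 in the 2 windows of the region, about 450 to 600 nt from the 5′ edge, over an input of 0.389 and 0.677. In exon 8 it was 6.65, 9.92 and 7.62 in 3 windows about 300 to 500 nt from the edge, over 0.274, 0.486 and 0.863. The ratio at the highest window was 20.4, with a wide interval of 9.79 to 47.7 because it rests on 8 input reads against 102 IP reads. Genes below the input minimum held a region in 5.17% of cases, a share that includes genes with an input of 0 and is not matched to NR1D2.

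NR1D1 had more input than NR1D2 by 3.84-fold but no enriched window. Its gene-level score of 1.27 came from exon 1, where IP coverage peaked at 9.0 over an input of 2.41 about 400 nt from the 5′ edge. Exon 5 of NR1D1 has 13 windows, as does exon 5 of NR1D2. Its log2 ratio of IP to input was 0.33 (0.025 to 0.63, 205 input and 164 IP reads), against 2.52 (2.11 to 2.95, 62 and 226 reads) in NR1D2. In its final windows IP rose to 5.46 over 3.29 with a score of 0.40, at the distance from the edge where the NR1D2 region lay. Again the counting intervals do not overlap, but they do not allow for the choice of exon 5, which holds a region of NR1D2.

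**Figure D4:**
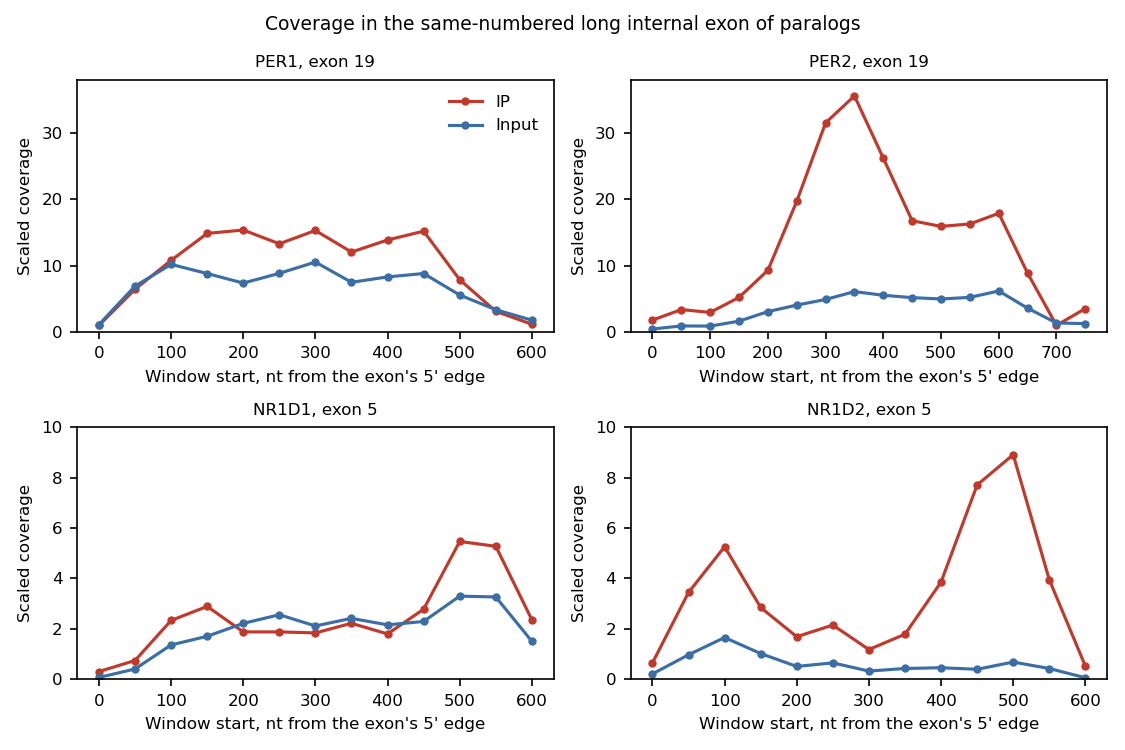
Scaled coverage of IP (red) and input (blue) by window start in nt from the 5′ edge of exon 19 of PER1 and PER2 (upper panels) and exon 5 of NR1D1 and NR1D2 (lower panels), with a common axis in each row. IP reaches 35.6 in PER2 against 15.4 in PER1, and 8.91 in NR1D2 against 5.46 in NR1D1, while input is higher in PER1 and NR1D1.

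CRY1 and CRY2, the cryptochrome repressors, held no region. In CRY1 the signal lay in exon 1, which with 21 windows is the longest exon of this listing. IP coverage was 3.82, 10.9 and 13.7 in windows starting about 650 to 750 nt from the 5′ end, over an input of 0.891, 3.61 and 4.80. The highest score was 1.66, and the ratio there was 3.02 (2.16 to 4.16, 59 input and 112 IP reads). The last exon of CRY1 reached a score of 0.55. CRY2 had the lowest gene-level score of the clock genes, 0.96. Its last exon has 47 windows with an input of 0.171 to 4.16 and an IP of 0.127 to 4.06, and the highest window stood at 3.27 over 1.65, a ratio of 1.98 (1.16 to 3.41). CRY2 was also the member with the lowest gene-wide log2 ratio, at -0.34 (-0.49 to -0.18).

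CLOCK and ARNTL, whose products form the activating pair, came close to the threshold near the inner edge of the last exon. In ARNTL 1 window reached 2.17, where IP was 8.23 and input 1.46, and its neighbours stood at 1.95 and 1.78, so that no region was counted although the gene-level score was 2.06. That ratio was 5.64 (3.50 to 9.16, 24 input and 85 IP reads), and the window starts about 100 nt into the last exon. CLOCK has a last exon of 154 windows. Its highest window, about 200 nt into that exon, had an IP of 10.4 over an input of 2.60, a score of 1.92 and a ratio of 4.0 (2.78 to 5.87). A further rise at about 600 nt had an IP of 8.08 over 2.35. Farther out in this exon the scores were low, and the median over the exon was 0.062.

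DBP, the output factor, had a gene-level score of 1.49 and no region. Its last exon has 10 windows, and IP coverage there reached 13.7 over an input of 4.17 and then 10.6 over 2.31, with a highest score of 1.65 about 350 nt from the 5′ edge. That ratio was 4.60 (3.19 to 6.98). The score was lowest in exon 2, between -0.79 and -0.30, where input was 0.291 to 1.08 and IP 0.0996 to 0.476. The highest window lay in the last exon in 7 of the 10 clock genes, in the first exon in 2 (CRY1 and NR1D1) and in an internal exon in 1 (PER2). The same count was not made over all measured genes, so it is no result about clock genes. It also depends on exon length, since the last exon holds 154 of 232 windows in CLOCK but 18 of 107 in PER1.

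The level of a transcript bears directly on its score, because 1 is added to all values. For members with little input this pulls scores toward 0. With 0.1 added in place of 1, CRY1, CLOCK and ARNTL also held a region, for 7 members in all, and the gene-level score of NR1D2 was 4.33. With 5 added only BHLHE40 held a region (1 of 10). The share among measured genes was then 51.8% and 33.9%. It leaves out CRY1, CLOCK, ARNTL and NR1D2, which lie below the input minimum, so the counts of members cannot be set directly against it. Among the measured members PER1, PER2 and BHLHE40 held a region with 0.1 added, the same genes as with 1 added. BHLHE40 kept its place as the highest under each of these settings and without centring, while the lowest was CRY2 except with 0.1 added, when it was NR1D1.

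**Figure D5:**
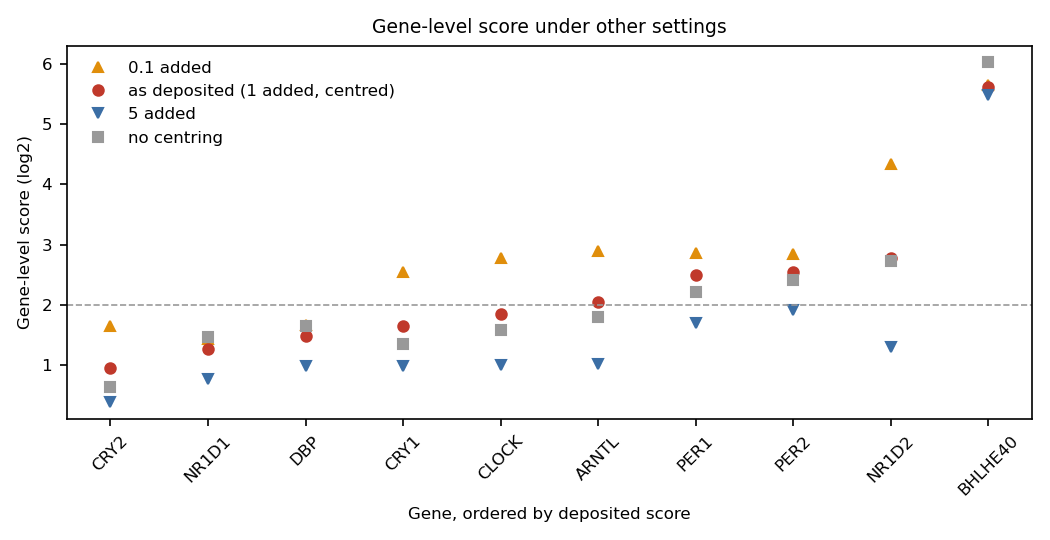
Gene-level score (log2) of each clock gene as deposited (red circles), with 0.1 added (orange triangles up) or 5 added (blue triangles down) in place of 1, and without centring on the gene median (grey squares). The points of BHLHE40 lie between 5.48 and 6.02, whereas those of NR1D2 spread from 1.31 to 4.33.

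E-boxes are the sites through which CLOCK, BMAL1 and DEC1 act on this loop, so the promoters of the members were searched for CACGTG, a palindrome that reads alike on both strands. The windows of 300 bases (250 before and 50 after a gene start) came from RefSeq, build GRCh38.p14, and all 10 members matched, ARNTL under its current symbol BMAL1. Of 14 promoters of the members 3 held the motif, against 7.26% of 35116 promoters in all. This difference was not tested and rests on few promoters. Only the exact sequence within these 300 bases was searched, so other forms and more distant sites are not covered. The assay reads RNA and not DNA, so a match is a description of the sequence and not of a bound site. The matching promoters are printed with the motif in capitals, to show where it falls in the members with most input (BHLHE40 and PER1) and with least (NR1D2). They lie at chr17:8152355-8152654 on the minus strand (PER1), chr3:4979187-4979486 on the plus strand (BHLHE40) and chr3:23945871-23946170 on the plus strand (the second listed start of NR1D2).
PER1: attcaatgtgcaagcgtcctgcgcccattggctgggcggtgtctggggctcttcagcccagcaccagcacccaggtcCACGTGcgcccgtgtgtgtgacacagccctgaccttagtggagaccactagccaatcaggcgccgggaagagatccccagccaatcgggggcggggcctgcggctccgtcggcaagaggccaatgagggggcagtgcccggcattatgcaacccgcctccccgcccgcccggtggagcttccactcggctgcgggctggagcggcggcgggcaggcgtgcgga
BHLHE40: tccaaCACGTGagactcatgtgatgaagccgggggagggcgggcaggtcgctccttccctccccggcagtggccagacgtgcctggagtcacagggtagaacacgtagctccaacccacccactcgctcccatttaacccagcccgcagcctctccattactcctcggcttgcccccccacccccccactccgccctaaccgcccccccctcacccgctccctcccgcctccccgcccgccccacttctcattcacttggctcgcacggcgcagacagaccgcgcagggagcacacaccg
NR1D2: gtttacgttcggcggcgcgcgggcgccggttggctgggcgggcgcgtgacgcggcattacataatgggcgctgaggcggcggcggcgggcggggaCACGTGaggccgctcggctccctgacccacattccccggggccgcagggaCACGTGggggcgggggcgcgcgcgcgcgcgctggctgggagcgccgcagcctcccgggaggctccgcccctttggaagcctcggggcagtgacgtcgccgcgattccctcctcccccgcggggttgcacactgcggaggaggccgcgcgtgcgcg
In PER1 the motif begins at position -173 from the gene start, in BHLHE40 at -245 and in NR1D2 at -155 and -105.

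The kinases, F-box proteins and other factors that act on PER and CRY proteins form a separate list. Of its 12 genes 10 were measured, and 4 of these held a region, against the 44.2% given above. The gene-level scores of the 10 had a median of 1.77. BTRC, an F-box protein that recognises phosphorylated PER, scored 4.49, with a mean IP of 3.30 over an input of 1.17. CSNK1D, the kinase CK1 delta that phosphorylates PER, scored 3.78 (21.2 and 8.17), and GSK3B, a kinase acting on several clock proteins, 2.97 (5.32 and 4.09). The lowest measured was CSNK2B, the regulatory subunit of casein kinase 2, at 0.71 (10.1 and 9.97).

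Of 12 other genes of the loop and its outputs only 2 were measured, and both held a region, against 44.2% of all measured genes. With only 2 genes this cannot be set apart from the background. TIMELESS, a replication fork protein named after the fly clock gene, scored 3.16 with a mean IP of 5.87 over an input of 4.57. ARNTL2, a paralog of ARNTL, scored 2.40 with an IP of 2.57 over 3.33. Its input was 3.33 against 0.919 for ARNTL itself, while PER3 and NPAS2, paralogs of PER1 and CLOCK, stood at 0.0390 and 0.00103.

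Several clock genes overlap a neighbour. In RefSeq NR1D1 overlaps THRA, NR1D2 overlaps NKIRAS1, DBP overlaps SPHK2 and CLOCK overlaps TMEM165. BHLHE40-AS1, a neighbour of BHLHE40, was also looked for but was not found among the gene names, so its level cannot be given. The library kit kept the strand, but whether the coverage used it is not given in the sources used here, so reads of overlapping parts may be shared. Mean input was 0.137 in THRA, 0.668 in NKIRAS1, 5.45 in SPHK2 and 5.49 in TMEM165. NKIRAS1, which held a region of its own, thus had more input than NR1D2, as SPHK2 and TMEM165 had more than DBP and CLOCK. The part of these neighbours in the values of NR1D2, DBP, CLOCK and NR1D1 was not tested. The gene-level score was the same in each listing of the 4 members that have several listings (ARNTL, CLOCK, CRY2 and NR1D2).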

How the data were processed

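Per the submitters' processing notes, reads were aligned with TopHat 1.1.3 to hg19. Neither the coverage program nor the annotation or scaling factor is given in the sources used here. The coverage deposited by the authors is a signal per window, scaled per library, and in each library 100% of nonzero values fell on multiples of its smallest value (within 0.01 of it). Read numbers were taken from that smallest value and reads of 36 nt. Window spacing was checked on 1382 single-exon genes (median 49.7 nt per window). The deposited score is a log2 value. Recomputed from the coverage and medians, 0 of 3335372 scores differed by more than 1e-09.

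For each gene name the listing with most windows was kept. Genes of at least 2 windows and a mean input of at least 1 were called measured. Ratios at single windows and exons are of scaled coverage with nothing added, with exact (Clopper-Pearson) 95% intervals from read numbers. PCR copies are not independent, and these cover counting error only. Named genes are all members and, from 2 lists of related genes, each measured gene with a region (up to 6 by score) and the lowest measured gene. Not every gene this rule names is reported here. The members, lists and thresholds were chosen with earlier results of these data known. Alternatives varied the number added, the centring, the threshold, the run length, the listing and the input minimum. Software was scipy 1.17.1, pandas 2.3.3, numpy 2.4.6 and matplotlib 3.10.9 under Python 3.11.15.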

Additional observations from a re-analysis of the deposited data

How the results depend on the processing

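No paired analysis was possible because each group has 1 library, and for the same reason no library could be left out. The number of clock genes with a region, measured or not, was 4 in the main setting, 7 with 0.1 added and 1 with 5 added. It was 9 at a threshold of 1, 1 at a threshold of 3 (BHLHE40) and 2 with runs of at least 4 windows (PER2 and BHLHE40). It was also 4, in PER1, PER2, NR1D2 and BHLHE40, without centring and with medians over the kept listing. Their median gene-level score moved from 1.96 to 2.81 with 0.1 added and 1.01 with 5 added. The share of measured genes with a region went from 44.2% to 51.8% and 33.9% with these, 45.5% without centring, 71.4% and 26.0% at thresholds of 1 and 3, 31.0% with runs of 4 windows, 34.1% at an input minimum of 5 and 14.1% with no minimum. The number of other clock genes with a region, measured or not, was 5, with 3 when 5 was added or at a threshold of 3, 4 without centring or with runs of 4 windows, 6 at a threshold of 1 and 7 with 0.1 added. The number of regulators was 4, with 8 at a threshold of 1 and 3 at a threshold of 3. The gene-wide log2 ratio, taken from deposited gene medians in place of means, turned negative in PER1 (-0.29), PER2 (-0.12), CRY1 (-0.30), ARNTL (-0.26) and NR1D2 (-0.051). A median gives little weight to a few high windows. In BHLHE40 it fell from 2.86 to 0.40. There were 91 comparisons for single genes, including the split of the last exon of PER2 that was added after seeing the data. Of these, 61 stayed within counting error, 25 moved and the 5 named above changed sign. Part of the 61 was fixed in advance. The 6 members with 1 listing can give only the main score over listings or with medians over the kept listing. In members with several listings the score was also the same in each. The 61 are therefore no measure of how stable the scores are. At the highest window NR1D2, ARNTL and CRY2 rest on 8, 24 and 27 input reads.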

Other observations

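Of the other genes of the loop, 3 held a region although their input lay below the minimum, and they are named here after their values were seen. TEF, a relative of DBP that binds the same sites, had a mean IP of 1.76 over an input of 0.550, a gene-level score of 3.01 and 2 regions, while DBP itself, with an input of 2.12, had none. NFIL3, a repressor that competes at those sites, had an IP of 2.57 over 0.259, a score of 3.66 and 2 regions. RORA, the nuclear receptor that opposes NR1D1 and NR1D2 at ARNTL, had an IP of 1.53 over 0.865, a score of 3.48 and 1 region. Genes below the minimum held a region in 5.17% of cases. They include genes with an input of 0, such as FBXL21, so this share is not matched for input to these 3 genes. No test was made of these differences.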
